A study of Mus musculus with 8 samples.

Results

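AP-1 (activator protein 1) and immediate early genes were compared between 2D- and 3D-cultured adipose-derived stem cells (ADSCs). The group was set by a list of 10 gene symbols, namely the FOS family (Fos, Fosb, Fosl1 and Fosl2), the JUN family (Jun, Junb and Jund), and Atf3, Egr1 and Ier3. All 10 were among the 24346 genes listed for each library, and all 10 were above 0 in every library and passed into the test. The list was set by gene symbol and not by a rule on the values, but it was chosen with earlier results of these data known.

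AP-1 is a transcription factor made of pairs of leucine zipper proteins. FOS proteins pair with JUN proteins and not with themselves, whereas JUN proteins also pair with each other, and the pair made depends on which members a cell holds. Fos, Fosb, Jun, Junb, Egr1, Atf3 and Ier3 are immediate early genes, whose transcription starts within minutes of growth factor, matrix or stress signals without new protein synthesis, and whose mRNAs are usually short-lived. Fosl1 (FRA-1) and Fosl2 (FRA-2) are switched on later and stay on while ERK signalling lasts, and Jund is transcribed in most resting cells. In fibroblasts, FRA-1 and FRA-2 are known for driving matrix and invasion genes.

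The cells were isolated from gonadal fat of wild-type adult male BALB/c mice by collagenase digestion. The 2D group holds 4 libraries (mice 2, 3, 4 and 5) of cells in conventional culture. The 3D group holds 4 libraries (mice 1, 4, 5 and 7) of cells embedded in Matrigel, where they grew as organoids. Each library is a culture of cells from 1 mouse, and mice 4 and 5 contributed to both groups. The medium and passage of the sequenced cultures are not given in the sources used here. For passaging, the paper took 3D cells out of Matrigel with a cold solution on ice, and it does not describe the harvest for RNA. Any difference in medium or harvest between the groups goes with the culture and cannot be told apart from it. The 3D library of mouse 1 is placed in 3D by its title, while its description does not name 3D. The values are FPKM (fragments per kilobase of gene, scaled to the mapped fragments of the library), which is a scale per gene length, and they were quantile normalized over the 18862 genes above 0 in any library. Fold changes are differences of log2(FPKM + 1), 3D minus 2D, from limma, given with their standard error (SE) and with p-values adjusted over these 18862 genes.

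Both groups are labelled as adipose stem cells, and most of the usual stromal markers were near 0 in the 3D libraries. Of 9 stromal and mesenchymal stem cell markers, 6 were lower in 3D, 1 (Ly6a) was higher, and Pdgfrb, among the lower ones, was at 0 in all 4 3D libraries. Col1a1, a collagen chain, was at most 0.107 normalized FPKM in 3D against between 259.5 and 635 in 2D. All 7 epithelial markers were higher in each 3D library than in any 2D library, and 6 of them passed the test. Epcam was at most 0.0504 in 2D, against a range of 265 to 494 normalized FPKM in 3D. Among the 3D libraries that of mouse 1 stood apart, with Ly6a (SCA-1) at 58.6 normalized FPKM against 1429 to 3117 in the other 3D libraries. The summed level of 4 mesothelial markers (Msln, Upk3b, Wt1 and Lrrn4) reached 1358 normalized FPKM in 2D. It came from mice 3 and 4, where Msln was at 253 and 728 normalized FPKM, against 0.388 and 0.286 in mice 2 and 5. Of 5 macrophage and leukocyte markers, 1 was higher in 3D and 0 were lower. Cd68, a lysosomal protein abundant in macrophages, was at 1.97 ± 1.09 normalized FPKM in 2D and 15.2 ± 14.2 in 3D (SD, n = 4; limma adjusted p = 0.0133). Csf1r, which did not pass, was at 0.868 ± 0.419 and 4.32 ± 3.22 (SD, n = 4; limma adjusted p = 0.129). Adgre1 and Lyz2 were at 0 in all 3D libraries, and Ptprc did not exceed 0.0779 normalized FPKM in any library. The part of such cells in the levels of the members was not tested. Of 4 endothelial markers, 0 passed the limma test, and 1 (Tek, lower in 3D) did at an unadjusted p below 0.05. In RNA from a whole culture, fewer cells of a type and less RNA per cell cannot be told apart.

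Of the 10 genes, 5 were higher in 3D (Fos, Junb, Jund, Egr1 and Ier3) and 2 were lower (Fosl1 and Fosl2) at a limma adjusted p below 0.05, while Fosb, Jun and Atf3 did not pass. Over all 18862 genes, 21.2% were higher and 20.3% lower by the same rule. These include many low genes, and among the 12577 that average 1 FPKM or more the shares were larger, at 28.2% and 27.5%. In a fit of those 12577 genes, which leaves out Fosb, 5 members were again higher and 2 lower. In the same 7 genes the libraries of the cultures did not overlap, 5 with every 3D library above (21.6% of all genes) and 2 with every 3D library below (20.9% of all genes). The number of higher members depended on the scaling. On the values as deposited, Fos and Jund were the higher members (22.7% of all genes were higher) and Fosl1 and Fosl2 the lower ones (21.6%). Junb and Ier3 overlapped between the cultures on that scale, which left 3 members with all 3D libraries above (23.6% of all genes) and 2 with all below (21.8%). With upper quartile scaling the called members were the same 4 (24.0% of all genes higher and 20.6% lower).

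The layout of the mice also bore on these counts. With mice 4 and 5 alone, which gave both cultures, 0 members were higher and 1 (Fosl1) was lower, beside 9.89% and 7.92% of all genes, and 3 members were higher and 1 lower at an unadjusted p below 0.05, beside 35.6% of all genes in either direction. With the mouse as a replicate block in limma, which leaves 1 residual degree of freedom, 0 members passed in either direction, as did 0 of all genes. At an unadjusted p below 0.05, 1 member was higher (Junb) and 1 lower (Fosl1), beside 27.7% of all genes in either direction. When genes at 0 in all libraries were kept in the fit, 4 members were higher and 1 was lower (15.0% and 14.2% of all genes), and Egr1 and Fosl2 no longer passed.

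**Figure D1:**
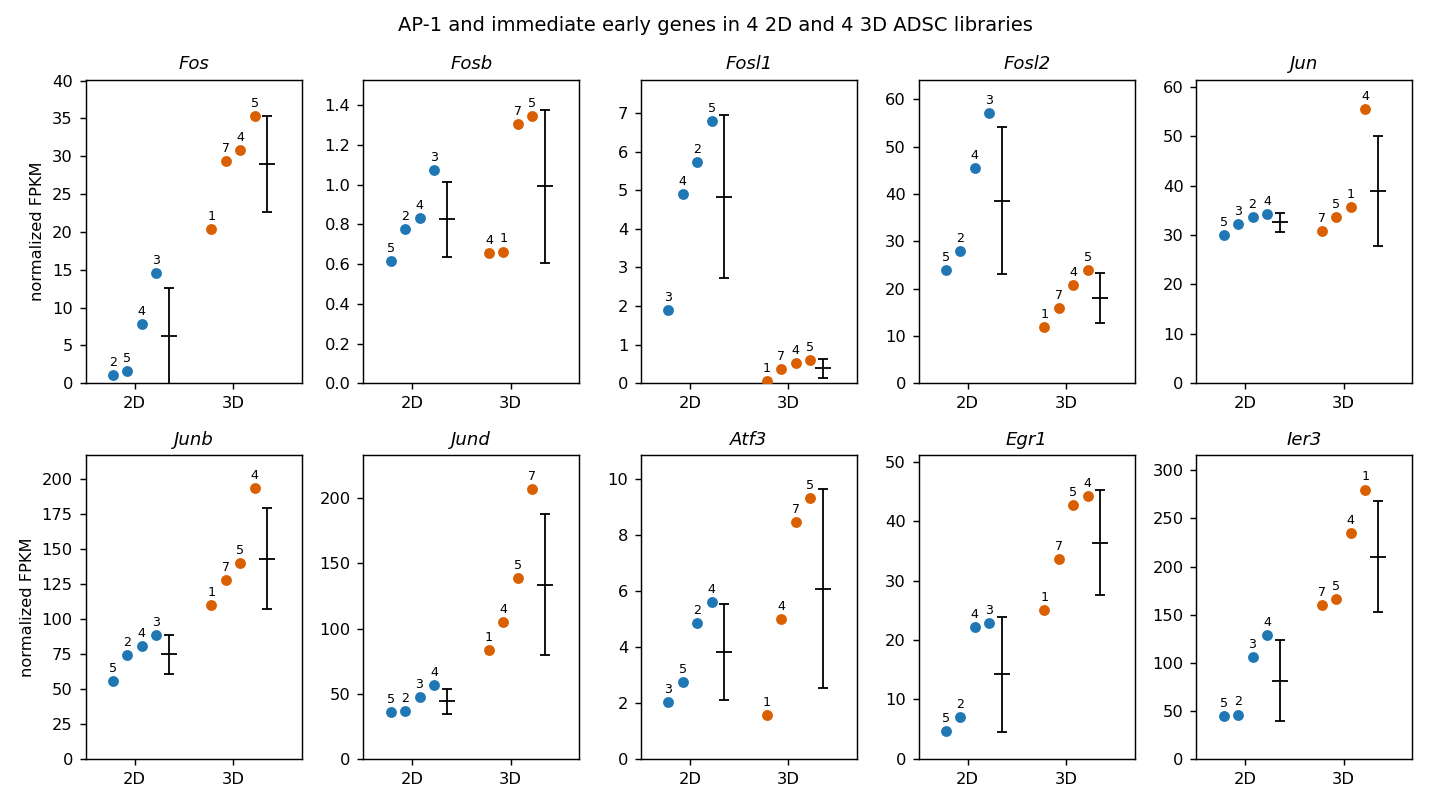
Normalized FPKM of the 10 genes in each library, on a separate linear axis per gene. Points are libraries, the number above a point is the mouse, and the black mark is the mean ± SD of 4 libraries (the lower end for Fos in 2D is cut at 0). Every 3D point lies above every 2D point for Fos, Junb, Jund, Egr1 and Ier3, and below for Fosl1 and Fosl2.

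Fos, the founding member of its family and the classical serum-responsive gene, is on chromosome 12 (GRCm38, chr12:85473890-85477273, plus strand). It was at 1.06, 14.6, 7.81 and 1.60 normalized FPKM in 2D, in the order of mice 2, 3, 4 and 5. In 3D, in the order of mice 1, 4, 5 and 7, it was at 20.3, 30.8, 35.4 and 29.4 normalized FPKM. The 2D libraries thus differed widely, with mice 2 and 5 low and mice 3 and 4 higher, but none reached the lowest 3D library. The mean rose from 6.26 ± 6.34 normalized FPKM to 29.0 ± 6.30 (SD, n = 4), which gave 2.50 as the log2 fold change (SE 0.64, limma adjusted p = 0.0158). Within mouse 4 the 3D level was 3.94 times the 2D level, and within mouse 5 it was 22.2 times. The low 2D levels rest on an estimated 25.6 fragments in mouse 2 and 40.4 in mouse 5.

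Fosl1, which encodes FRA-1, a member without the C-terminal activation domain of FOS, went the other way. It was at 5.74, 1.89, 4.89 and 6.79 normalized FPKM in mice 2, 3, 4 and 5 in 2D and at 0.0567, 0.528, 0.610 and 0.366 in mice 1, 4, 5 and 7 in 3D. All 3D libraries lay below the lowest 2D library, which was that of mouse 3. The mean fell from 4.83 ± 2.11 normalized FPKM to 0.390 ± 0.244 (SD, n = 4), a ratio of 12.4 between the 2D and the 3D mean. The log2 fold change was -1.99 (SE 0.32, limma adjusted p = 0.00193), and the added 1 FPKM makes it smaller than that ratio. By an estimate of depth from the steps between low values, the 3D levels rest on about 2.37, 18.0, 19.1 and 10.7 fragments in mice 1, 4, 5 and 7, so the 3D library of mouse 1 is under the level that 3 fragments give. An exon of Ccdc85b lies on the opposite strand of the same locus on chromosome 19. Ccdc85b was also lower in 3D, at 7.42 ± 1.65 normalized FPKM in 2D and 2.41 ± 0.301 in 3D (SD, n = 4), and whether the authors' FPKM values separated the strands is not given in the sources used here.

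Fosl2, which encodes FRA-2, was the most abundant FOS family mRNA in 2D. It was at 28.0, 57.2, 45.4 and 23.9 normalized FPKM in mice 2, 3, 4 and 5 in 2D and at 11.9, 20.8, 23.8 and 15.9 in mice 1, 4, 5 and 7 in 3D. The cultures only just failed to overlap, because mouse 5 was the lowest 2D and the highest 3D library, with a ratio of 1.00 between its 2D and 3D levels. In mouse 4, by contrast, the 2D level was 2.19 times the 3D level. Its log2 fold change was -1.01 (SE 0.32, limma adjusted p = 0.0356). The call was lost when the 2D library of mouse 3 or 4, or the 3D library of mouse 1, 4 or 7, was left out, with adjusted p-values up to 0.0826 and the same direction.

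Fosb, a neuronal and growth factor-responsive member, stayed low in both cultures, at 0.825 ± 0.189 normalized FPKM in 2D and 0.993 ± 0.385 in 3D (SD, n = 4). The 3D libraries of mice 5 and 7, at 1.35 and 1.31, lay above all 2D libraries, whereas those of mice 1 and 4, at 0.664 and 0.656, lay among them. On the log2 scale the change was 0.11 (SE 0.15, limma adjusted p = 0.586).

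The shares of Fos, Fosl2 and Fosl1 in the FOS family total, which are ratios within a library, did not overlap between the cultures. Fos made up between 2.98% and 19.5% of the family's normalized FPKM in 2D libraries and between 57.8% and 62.6% in 3D libraries. Fosl2 made up between 72.6% and 78.7% in 2D and between 33.9% and 39.4% in 3D. The share of Fosl1 was between 2.53% and 20.7% in 2D, and at most 1.00% in 3D. The share of Fosb overlapped, at 1.41% to 2.19% in 2D and 1.24% to 2.78% in 3D. On the values as deposited, Fos made up between 1.97% and 18.8% in 2D and between 56.0% and 61.1% in 3D. The family total itself overlapped between the cultures, at 50.5 ± 19.9 normalized FPKM in 2D and 48.4 ± 11.9 in 3D (SD, n = 4). The order of levels was therefore Fosl2 above Fos and Fosl1 in every 2D library, and Fos above Fosl2 above Fosl1 in every 3D library. No test was run on the shares, since the family was chosen as a set.

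**Figure D2:**
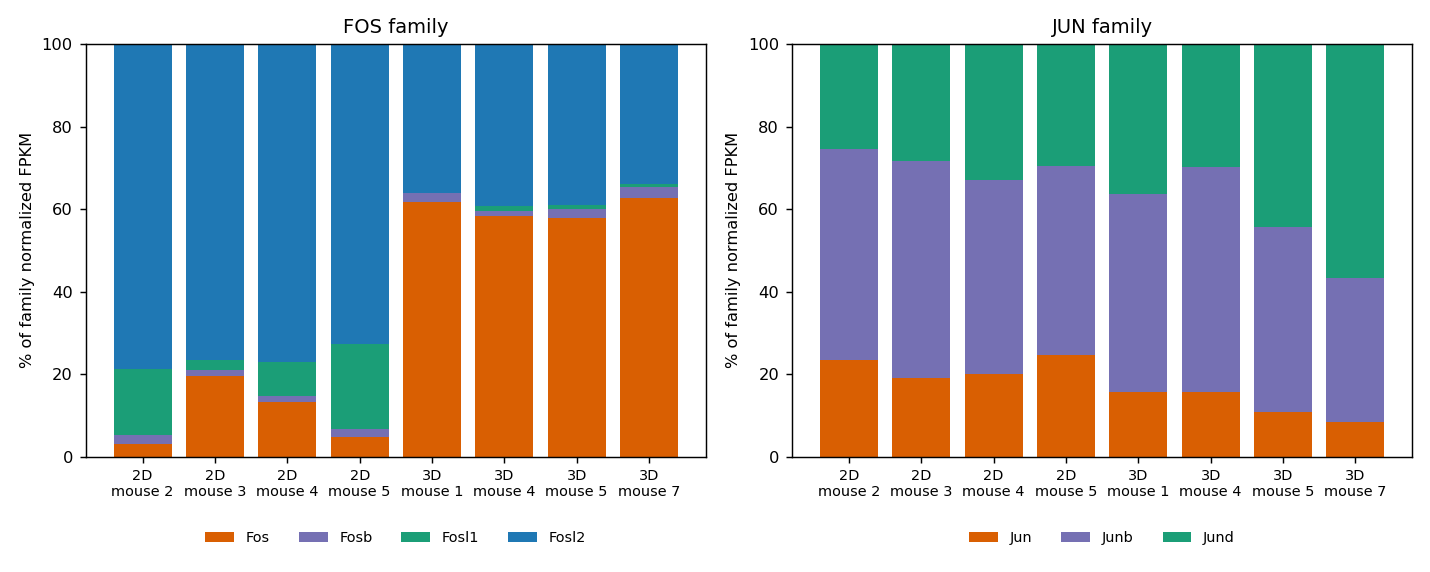
Share of each gene in the summed normalized FPKM of the FOS family (left) and of the JUN family (right), in percent, 1 bar per library. Fosl2 is the largest part of the FOS family in the 4 2D libraries and Fos in the 4 3D libraries, while in the JUN family the share of Jun is smaller in each 3D library than in any 2D library.

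Among JUN family genes, Jund rose and Jun did not pass the test. Jund, which encodes a JUN protein that restrains proliferation in fibroblasts, is on chromosome 8. It was at 36.9, 47.7, 56.5 and 36.0 normalized FPKM in mice 2, 3, 4 and 5 in 2D and at 83.3, 105, 139 and 207 in mice 1, 4, 5 and 7 in 3D. The 3D library of mouse 7 was highest and that of mouse 1 lowest within 3D, and none of them fell within the 2D range, also on the values as deposited. The log2 fold change was 1.51 (SE 0.29, limma adjusted p = 0.00409), and leaving out single libraries moved it between 1.29 and 1.73. The level in 3D was 1.86 times that in 2D within mouse 4 and 3.85 times within mouse 5. Exons of antisense genes lie on the opposite strand of Jund (Gm11175) and of Jun (Junos), and neither antisense gene is among the genes listed for the libraries.

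Junb, a JUN protein that often opposes Jun on growth genes, was at 73.9, 88.7, 80.4 and 55.3 normalized FPKM in mice 2, 3, 4 and 5 in 2D. In 3D it was at 110.2, 194, 140.0 and 128 normalized FPKM in mice 1, 4, 5 and 7. Mouse 4 was highest in 3D, and the lowest 3D library (mouse 1) still exceeded the highest 2D library (mouse 3). Its log2 fold change was 0.92 (SE 0.20, limma adjusted p = 0.00864). On the values as deposited, the 3D library of mouse 1 (90.3 FPKM) lay under the 2D libraries of mice 2 and 3 (92.6 and 97.8 FPKM), and the log2 fold change was 0.39 with an adjusted p of 0.144. An exon of Prdx2, on the opposite strand, overlaps the annotated Junb locus, and Prdx2 was not higher in 3D (422 ± 179 normalized FPKM in 2D and 232 ± 32.1 in 3D; SD, n = 4).

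Jun, the JUN protein with the strongest transforming and activating properties, was nearly the same in all 4 2D libraries, at 33.7, 32.3, 34.3 and 30.0 normalized FPKM. In 3D it was at 35.6, 55.5, 33.7 and 30.9 normalized FPKM in mice 1, 4, 5 and 7, so that only mouse 4 stood above the others. On the log2 scale the change was 0.21 (SE 0.17, limma adjusted p = 0.367), and its sign turned on the values as deposited (-0.065, adjusted p = 0.759) and with upper quartile scaling (-0.011, adjusted p = 0.962). Jun made up between 19.1% and 24.7% of the JUN family total in 2D and between 8.45% and 15.7% in 3D. The family total was 151 ± 23.4 normalized FPKM in 2D and 315 ± 61.9 in 3D (SD, n = 4). Junb made up between 45.6% and 52.6% of that total in 2D and between 34.9% and 54.6% in 3D, so that its share overlapped between the cultures.

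The bases just before the start sites of Fos, Jun and Junb are shown because Fos and Junb rose and Jun did not pass the test. They are the 150 bases before the RefSeq start site (GRCm38.p6, 5′ to 3′ on the strand of the gene), and capitals mark matches to the AP-1 and CRE motifs searched.
Fos, chr12:85473740-85473889, plus strand: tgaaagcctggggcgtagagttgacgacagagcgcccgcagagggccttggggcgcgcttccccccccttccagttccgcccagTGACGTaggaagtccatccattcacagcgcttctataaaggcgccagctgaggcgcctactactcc
Jun, chr4:95052223-95052372, minus strand: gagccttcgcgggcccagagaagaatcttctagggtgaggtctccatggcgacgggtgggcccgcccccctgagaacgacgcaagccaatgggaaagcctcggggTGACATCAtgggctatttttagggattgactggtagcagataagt
Junb, chr8:84978749-84978898, minus strand: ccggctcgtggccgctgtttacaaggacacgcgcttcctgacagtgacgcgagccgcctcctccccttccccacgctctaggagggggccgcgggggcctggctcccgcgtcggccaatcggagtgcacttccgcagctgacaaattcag
The 250 bases before the start were searched on both strands for the AP-1 site TGANTCA, the variant TGACATCA, the CRE TGACGTCA, its part TGACGT and the CArG box, which SRF binds. RefSeq entries of 8 of the 10 members were searched, and the promoters of Fosl1 and Egr1 were not. TGACGT matched in Fos at -66 to -61 and, as its reverse complement, in Atf3 at -8 to -3, and TGACATCA matched in Jun at -45 to -38, counted from the start site. Over 32817 promoters, 6.46% held TGACGT (which includes every TGACGTCA), 2.93% held TGACATCA, 6.75% held TGANTCA, 1.55% held TGACGTCA and 1.47% held a CArG box. TGANTCA, TGACGTCA and the CArG box had no match in the searched windows of these 8 members, and bases farther upstream were not searched. Those windows are placed by the RefSeq start, which for some members is not the GENCODE start. The Jund window ends at chr8:70697738, ahead of the GENCODE start at 70698949, the Atf3 window lies inside the GENCODE gene, and the 150 bases before the RefSeq start of Fosl2 all lie in GENCODE exons. The Fos window also holds TATAAA at -33 to -28, which 7.6% of promoters hold on the strand of the gene. A match describes letters and not binding.

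Egr1, a zinc finger factor on chromosome 18 that is induced through SRF and ERK, was at 7.06, 22.8, 22.1 and 4.76 normalized FPKM in mice 2, 3, 4 and 5 in 2D. In 3D it was at 25.1, 44.2, 42.6 and 33.6 normalized FPKM in mice 1, 4, 5 and 7. As with Fos, mice 3 and 4 stood above mice 2 and 5 in 2D, and the 2D library of mouse 3 came close to the 3D library of mouse 1. The log2 fold change was 1.53 (SE 0.49, limma adjusted p = 0.0397). The call was lost without the 2D library of mouse 2 or 5 or the 3D library of mouse 4, 5 or 7, with adjusted p-values up to 0.0976, and on the values as deposited, with 0.0620.

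Ier3 (IEX-1), an early response gene that acts on cell survival downstream of ERK and NF-kappaB, had the highest mean of the 10 genes in both cultures. It was at 46.2, 106, 129 and 44.9 normalized FPKM in mice 2, 3, 4 and 5 in 2D and at 280.1, 235, 166 and 160.1 in mice 1, 4, 5 and 7 in 3D. Mice 3 and 4 were again the higher 2D libraries, and mouse 1 was the highest 3D library, which was the reverse of its rank for Fos. Its log2 fold change was 1.47 (SE 0.39, limma adjusted p = 0.0183). On the values as deposited, the 2D library of mouse 4 (148 FPKM) exceeded the 3D libraries of mice 5 and 7 (130 and 127 FPKM), and the adjusted p was 0.0809.

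Atf3, a stress-induced factor of the ATF and CREB family that pairs with JUN proteins, overlapped between the cultures. It was at 4.88, 2.02, 5.62 and 2.75 normalized FPKM in mice 2, 3, 4 and 5 in 2D and at 1.55, 5.01, 9.33 and 8.46 in mice 1, 4, 5 and 7 in 3D. The 3D library of mouse 1 was the lowest of all 8 and those of mice 5 and 7 were the highest. On the log2 scale the change was 0.44 (SE 0.48, limma adjusted p = 0.493), and without the 3D library of mouse 1 it was 0.89 with an adjusted p of 0.0853.

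**Figure D3:**
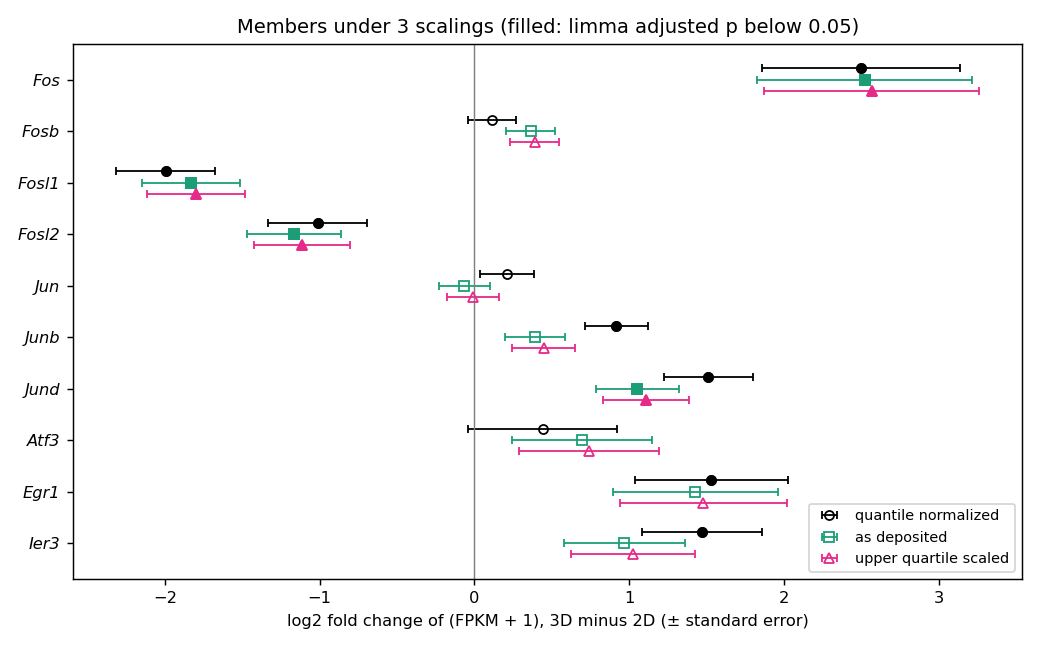
Log2 fold change (3D minus 2D, with its standard error) of the 10 genes on quantile normalized values (circles), values as deposited (squares) and upper quartile scaled values (triangles). Filled symbols have a limma adjusted p below 0.05. Fos, Fosl1, Fosl2 and Jund are filled under each scaling, Junb, Egr1 and Ier3 only after quantile normalization, and Jun lies on both sides of 0.

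The split within 2D ran through several members. Fos, Fosb, Fosl2, Junb, Jund, Egr1 and Ier3 were higher in the 2D libraries of mice 3 and 4 than in those of mice 2 and 5 after normalization, although for Junb mouse 2 (92.6 FPKM) lay above mouse 4 (89.2 FPKM) on the values as deposited. Fosl1 was instead lower in mice 3 and 4 (1.89 and 4.89 normalized FPKM) than in mice 2 and 5 (5.74 and 6.79). The same pairs are also the 2D libraries with and without high mesothelial markers (Msln at 253 and 728 against 0.388 and 0.286 normalized FPKM). Krt8, a keratin, was at 26.8 and 261 normalized FPKM in mice 3 and 4 and at 0 and 0.0603 in mice 2 and 5. The part of these cells in the levels of the members was not tested. With the 2D libraries of mice 3 and 4 left out, 5 members were higher and 1 was lower (19.3% and 22.8% of all genes), and Fosl2 no longer passed (adjusted p = 0.185). With those of mice 2 and 5 left out instead, 2 members were higher and 2 lower (16.0% and 17.9% of all genes). Fos, Jund, Fosl1 and Fosl2 then passed, while the adjusted p was 0.0582 for Junb, 0.0942 for Egr1 and 0.0721 for Ier3. The log2 fold change of Fos was 3.63 without mice 3 and 4 and 1.27 without mice 2 and 5, and Fos, Fosl1 and Jund were called in both cases.

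Deviations of a library from the mean of its culture were compared between genes, as a description over 8 libraries that share their scaling. Among members and other immediate early genes, Fos was most like Egr1 (Pearson's r = 0.93). Egr1 and Fosl2 were both most like Zfp36, an early gene for an mRNA decay protein (r = 0.97 and 0.99), and Atf3 was most like Klf6 (r = 0.90). Ier3 was most like Zfp36l1 (r = 0.91), although the correlation was 1.00 over the 4 2D libraries and 0.51 over the 4 3D libraries. For Fosl1, most like Egr2 (r = 0.78), the correlation was 0.92 in 2D and -0.74 in 3D, so that it rested on the 2D libraries.

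The other immediate early genes did not share one direction. Of 23 tested, 3 were higher and 10 lower in 3D at an adjusted p below 0.05. Over all genes, 21.2% were higher and 20.3% lower, and these shares also apply to the lists below. Among the genes that average 1 FPKM or more, the shares were 28.2% and 27.5%. The median log2 fold change of the 23 genes was -0.37, against 0.00 over all genes. Zfp36l1 (another mRNA decay protein), Phlda1 and Ier2 rose, with log2 fold changes of 3.10, 1.76 and 0.95. Sgk1, a kinase induced by serum and glucocorticoids, fell from 94.9 ± 2.16 normalized FPKM to 2.87 ± 1.76 (SD, n = 4), which gave -4.73 as the log2 fold change. Csrnp1 and Egr2 also fell, with log2 fold changes of -2.55 and -2.44. Egr2 thus moved against its relative Egr1, at 11.3 ± 8.61 normalized FPKM in 2D and 0.773 ± 0.278 in 3D (SD, n = 4).

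Of the 11 tested other partners of AP-1, 1 was higher and 3 were lower, with a median log2 fold change of 0.08. Batf was at 0 in every library. Jdp2, a repressor that pairs with JUN proteins, fell from 52.4 ± 8.93 normalized FPKM to 8.10 ± 2.46 (SD, n = 4), which gave -2.57 as the log2 fold change (SE 0.21, limma adjusted p = 6.1e-05). The small MAF proteins, which lack an activation domain, split, with Mafg higher (0.83) and Maff and Mafk lower (-1.62 and -0.80).

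The genes listed for feedback on ERK signalling, namely Dusp phosphatases and Spry and Spred genes, also split. The list does not separate the phosphatases by the MAP kinase they act on. Of 12 genes, 6 were higher and 3 lower, with a median log2 fold change of 0.49. Dusp6, a cytoplasmic ERK phosphatase, rose from 50.2 ± 34.9 to 240.4 ± 85.3 normalized FPKM (SD, n = 4), and Spred1 and Spry1, which act on RAS and RAF signalling, rose by log2 fold changes of 2.00 and 1.98. Of the other phosphatases, Dusp1, Dusp5 and Dusp4 fell, with log2 fold changes of -2.91, -1.90 and -1.82, and Dusp10 rose, with 1.41. Dusp2 and Dusp8 did not pass, with -0.07 and -0.60. Dusp1 is itself an immediate early gene, and its range was 31.8 to 54.9 normalized FPKM in 2D against 0.875 to 7.18 in 3D.

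Among the 16 genes for MAP kinases and for the factors that act on the promoters of early genes, 2 were higher and 8 lower, with a median log2 fold change of -0.38. Srf, the serum response factor, fell from 29.1 ± 12.5 normalized FPKM to 11.1 ± 1.22 (SD, n = 4), which gave -1.22 as the log2 fold change (SE 0.30, limma adjusted p = 0.0126). Elk3, an ETS partner of SRF, and Map2k1, which encodes the ERK kinase MEK1, fell as well, with log2 fold changes of -1.35 and -0.93. Mkl2, an actin-regulated SRF cofactor, rose by 0.98, and Map2k7, a kinase of JNK, by 0.36.

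Of 15 textbook AP-1 target genes, 2 were higher and 8 lower in 3D, with a median log2 fold change of -2.40. Timp1, a metalloproteinase inhibitor, fell from 1012 ± 356 normalized FPKM to 2.55 ± 0.661 (SD, n = 4), which gave -8.11 as the log2 fold change. Tnc, for a matrix glycoprotein, fell too, with a log2 fold change of -7.38. Ccnd1, for cyclin D1, and Plau, for urokinase, were higher, with log2 fold changes of 1.06 and 1.15. Plau overlapped between the cultures, and its adjusted p was 0.0484 from limma. On the values as deposited, 0 of the 15 targets were higher and 8 lower (22.7% and 21.6% of all genes). With upper quartile scaling, 0 were higher and 8 lower as well (24.0% and 20.6% of all genes), so that neither Ccnd1 nor Plau was called. Many of these targets are also stromal genes, and of the 9 stromal markers 6 were lower and 1 was higher in the same 3D libraries. Cd44, which is in both lists, did not pass (limma adjusted p = 0.362). The part of stromal cells in the levels of these targets was not tested.

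Stress genes did not rise as a group. Of 8 genes of the integrated stress response, which also controls Atf3, 1 was higher (Sesn2, 0.48) and 2 were lower (Atf5, -1.56, and Herpud1, -0.92), with a median log2 fold change of -1.02. On the values as deposited, 0 of these 8 genes were higher and 3 lower (22.7% and 21.6% of all genes). Of 8 heat shock genes, Hspa1b was higher and Hspb1, Dnajb1 and Hspa8 were lower, with a median of -0.16. Hspa1b rose from 11.7 ± 4.91 to 66.4 ± 19.2 normalized FPKM (SD, n = 4), but it is nearly identical to Hspa1a (2.74 in 2D and 3.95 in 3D, adjusted p = 0.315), so that the reads of the pair may be split uncertainly. In all, 16 of the 93 tested genes of these lists were higher and 37 lower, beside 21.2% and 20.3% of all genes. When genes averaging under 1 FPKM were dropped, 16 listed genes were higher and 36 lower, beside 28.2% and 27.5% of the remaining genes.

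**Figure D4:**
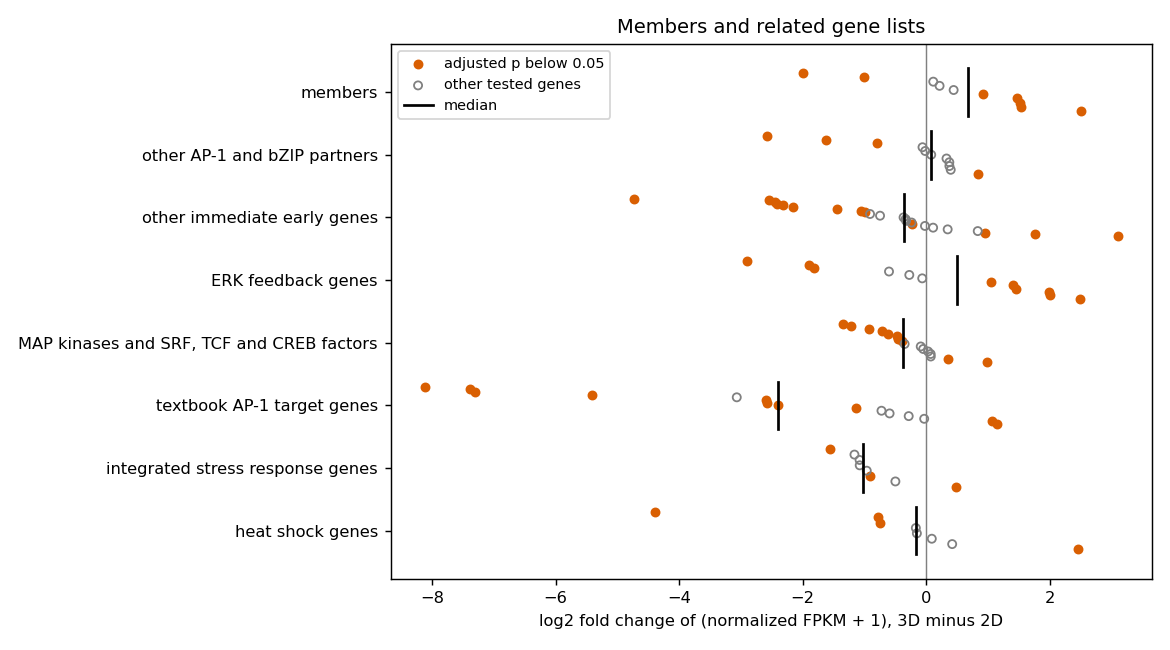
Log2 fold change (3D minus 2D) of each tested gene of the 10 members and of 7 related gene lists. Filled points have a limma adjusted p below 0.05, open points do not, and the black line is the median of a list. The median of the other immediate early genes is -0.37 and that of the textbook AP-1 target genes is -2.40.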

How the data were processed

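Total RNA of 8 cultures was depleted of ribosomal RNA, made into directional libraries and sequenced in pairs. After trimming (FASTX_Trimmer, BBMap), the authors aligned the reads to mm10 by TopHat and obtained FPKM for genes by Cufflinks. These deposited FPKM carry no counts and were not yet quantile normalized: upper quartiles differ between libraries (10.7 to 11.4). The annotation is not given in the sources used here.

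Of 24346 genes, 5484 at 0 in every library were left out, and 18862 were quantile normalized, converted to log2(FPKM + 1) and fitted with limma 3.58.1 (R 4.3.3) with an intensity trend and without covariates. Quantile normalization follows the study's methods. Calls use an adjusted p (Benjamini-Hochberg) below 0.05. Alternatives were other scalings, filters, pseudocount and trend, the mouse as a block, mice 4 and 5 alone, and single or paired libraries left out. The fit was tested on simulated data with log2 changes of 1 and 2 put into 100 genes each. The changed genes were drawn from those with a higher mean level than Fosb, Fosl1 or Atf3, and no mouse effect was simulated. Without the mouse as a block it recovered 62% and 83% of them, with 19 false calls among 18862 genes. The 19 false calls stand beside 62 and 83 correct ones, a larger part of the calls than the adjusted p of 0.05 allows on average. With the block it recovered 0% of either.

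Depth was estimated at between 14.5 M and 17.3 M fragments. The estimate used the low values among 875 single-transcript genes, between 110 and 135 values per library. Of these values, between 69.2% and 82.1% lay within 0.15 of a whole multiple. Such limits cover counting error only. Gene positions are from GENCODE M21 (GRCm38, the same assembly as mm10) and promoters from RefSeq. The labels do not say whether libraries share a harvest day, and p-values measure the spread between these libraries. In the pairing check over 12577 genes, deviations of the 2D and 3D library of a mouse correlated at -0.05 (mouse 4) and -0.11 (mouse 5). The pairing comes from the mouse numbers in the labels, since mice 4 and 5 gave a library of each culture.

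The members and the gene lists were chosen with earlier results of these data known. Named genes are the members, and in each related list the 3 genes with the largest change in each direction among those called. A gene that this rule names is not reported here. Markers are those of a fixed list, and Ccdc85b, Prdx2, Hspa1a, and Zfp36 and Klf6 (by likeness) are named beside a member's or a listed gene's value. Gm11175 and Junos are named only because they overlap a member. Dusp2, Dusp8 and Dusp10 complete the phosphatases of their list and were chosen after their values were seen, and Batf is named as a gene not tested.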

Additional observations from a re-analysis of the deposited data

How the results depend on the processing

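Alternatives changed the count of members more than their direction. On the values as deposited 2 members were higher, and with upper quartile scaling also 2. In the related lists, 11 genes were higher as deposited and 13 with upper quartile scaling (22.7% and 24.0% of all genes). Under each of these scalings 41 related genes were lower (21.6% and 20.6% of all genes). Without a filter on low values 1 member was lower (Fosl1). Leaving out single libraries gave between 4 and 5 higher members (beside 18.1% to 21.7% of all genes) and between 1 and 2 lower ones (17.1% to 20.6%), and in the related lists 12 to 16 higher and 30 to 35 lower genes. Leaving out the 2D library of mouse 3 or 4, or the 3D library of mouse 1, 4 or 7, gave 1 lower member. With only mice 4 and 5, 0 members were higher and 1 lower, and 7 related genes were higher and 16 lower, beside 9.89% and 7.92% of all genes. Pairing by the mouse as a replicate block left 0 members and 0 related genes in either direction. In the same limma fit, 37 of the 93 related genes had an unadjusted p below 0.05, beside 27.7% of all genes. The smallest adjusted p from limma over all genes was then 0.111, so that no gene could be called with the 1 residual degree of freedom. The sign of Jun turned on the values as deposited (-0.065) and with upper quartile scaling (-0.011). In 2 alternatives chosen after seeing the data, leaving out the 2D libraries of mice 3 and 4 gave 1 lower member, and leaving out those of mice 2 and 5 gave 2 higher. Over the single members, 142 of the results under alternatives kept direction and call, 35 lost the call and 2 changed sign. The causes were not tested. Values that rest on under 100 estimated fragments are Fosl1 in 3D and in the 2D library of mouse 3, Fosb in every library, and Fos in the 2D libraries of mice 2 and 5. Atf3 in the 2D libraries of mice 3 and 5 and in the 3D library of mouse 1 is also under that level.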
